A study of Homo sapiens with 26 samples.

Results

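Of the 155652 FOXA1 peaks mapped in BJ cells, 12117 (7.78%) were overlapped by at least 1 bp by a peak of each of 3 FOXA1 variants, FOXA1dbd, FOXA1nhaa and FOXA1rraa, and by no peak of HNF4A. These are called the shared sites here. They cover 6.72 Mb. They were chosen by these measured overlaps, so the overlaps, the authors' scores of the FOXA1 peaks and the variants' own peak values are given as descriptions, without a test.

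The series used chromatin immunoprecipitation with sequencing (ChIP-seq) to map HALO-tagged proteins in BJ, an established line of human foreskin fibroblasts. Every construct carried the HALO tag, a protein fused to the factor, and was precipitated with the same antibody to that tag 48 hours after ectopic expression began, from formaldehyde-fixed and sonicated chromatin. The groups used here are FOXA1, the variants FOXA1dbd, FOXA1nhaa and FOXA1rraa, and HNF4A, a nuclear receptor that served here to leave out sites. The labels list 2 ChIP libraries and 2 inputs per construct, and 1 peak list per construct was analysed, so no replicate error can be given. A factor expressed in a cell type that is not its usual one limits the system as a model of FOXA1 in liver or breast. Peak lists hold no expression values, so the cell type was not checked against marker genes. What the dbd variant retains is not spelled out in the labels. In published work on FOXA1, NHAA names alanine substitutions of an asparagine and a histidine that contact DNA bases, and RRAA those of arginines that contact the DNA backbone.

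FOXA1 is a forkhead protein: a winged-helix domain binds DNA at short cores such as TGTTTAC and TATTTAC. It is known as a pioneer factor, a protein that can bind its site in compacted chromatin, and it acts in liver, breast and prostate development. AP-1 is a dimer of FOS and JUN family proteins that binds TGANTCA, where N is any base, and it is a main regulator of fibroblast enhancers.

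The sequences below are examples from the rankings and are not typical shared sites. They show sites with a forkhead core and AP-1 letters in the same window, repeats with many cores, and repeats with none. Both motifs stood together in 4.07% of shared sites, and 3.75% were repetitive by the measure given below. The more frequent case of AP-1 letters without a core, 20.7% of shared sites, is not printed. Each is 200 bp of the GRCh37 (hg19) genome, read 5′ to 3′. Capitals mark the forkhead cores TGTTTAC and TATTTAC and the AP-1 letters TGANTCA, with their reverse complements. The pair with both motifs was chosen after values were seen, from the shared sites with high FOXA1 scores that carry both.
Forkhead and AP-1 letters, SPATS2L intron, chr2:201312330-201312529, plus strand: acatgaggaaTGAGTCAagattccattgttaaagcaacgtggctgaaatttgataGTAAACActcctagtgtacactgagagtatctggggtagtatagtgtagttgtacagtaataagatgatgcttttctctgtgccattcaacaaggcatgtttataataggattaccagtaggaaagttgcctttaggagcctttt
Forkhead and AP-1 letters, SPAG16 intron, chr2:214153614-214153813, plus strand: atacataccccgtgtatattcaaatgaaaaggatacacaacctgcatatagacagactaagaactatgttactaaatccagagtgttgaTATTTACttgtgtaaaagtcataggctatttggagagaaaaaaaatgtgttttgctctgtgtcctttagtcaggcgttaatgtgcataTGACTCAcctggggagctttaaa
Most forkhead cores, between genes, chr2:143360336-143360535, plus strand: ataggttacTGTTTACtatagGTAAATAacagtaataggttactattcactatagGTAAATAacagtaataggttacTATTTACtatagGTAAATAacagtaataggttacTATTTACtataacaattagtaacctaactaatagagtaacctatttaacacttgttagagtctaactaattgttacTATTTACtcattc
Most forkhead cores, between genes, chr12:48027801-48028000, plus strand: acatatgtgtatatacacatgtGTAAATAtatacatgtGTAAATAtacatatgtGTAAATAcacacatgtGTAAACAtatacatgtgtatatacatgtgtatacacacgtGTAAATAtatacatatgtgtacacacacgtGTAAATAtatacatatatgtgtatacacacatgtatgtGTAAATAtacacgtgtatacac
Highest FOXA1dbd fold, between genes, chr18:77324420-77324619, plus strand: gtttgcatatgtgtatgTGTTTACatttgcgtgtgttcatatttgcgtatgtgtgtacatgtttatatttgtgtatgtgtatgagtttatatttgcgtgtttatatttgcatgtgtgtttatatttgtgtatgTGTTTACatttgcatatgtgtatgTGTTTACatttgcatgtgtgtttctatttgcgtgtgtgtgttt
Next FOXA1dbd fold, SRBD1 intron, chr2:45641756-45641955, plus strand: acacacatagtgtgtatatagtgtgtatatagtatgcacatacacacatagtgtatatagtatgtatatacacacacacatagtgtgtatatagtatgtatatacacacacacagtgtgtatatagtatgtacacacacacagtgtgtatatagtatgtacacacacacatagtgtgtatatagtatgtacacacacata
Highest FOXA1 score, between genes, chr3:46949135-46949334, plus strand: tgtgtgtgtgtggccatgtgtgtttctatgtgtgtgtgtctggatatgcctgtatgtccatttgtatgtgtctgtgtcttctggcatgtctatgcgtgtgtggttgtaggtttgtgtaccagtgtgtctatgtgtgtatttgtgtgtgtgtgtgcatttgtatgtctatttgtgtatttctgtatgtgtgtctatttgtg

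In the SPATS2L window the AP-1 letters begin at base 11 and a forkhead core on the minus strand at base 56. In the SPAG16 window a core begins at base 90 and the AP-1 letters at base 178. These are ordinary stretches of mixed sequence. The chr2 and chr12 windows with the most cores hold 7 each in repeated blocks, and all 7 in the chr12 window lie on the minus strand. The chr18 window is centred on the FOXA1dbd summit and holds 3 cores, at bases 18, 134 and 158, inside a repeat of TG-rich units. The windows in SRBD1 and on chr3 are simple repeats with no core and no AP-1 letters.

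Several properties of the lists bear on every result. All 12519 FOXA1rraa rows that lie in shared sites are also rows of the FOXA1nhaa list, with the same coordinates. The 6733 FOXA1rraa rows found in neither the FOXA1 nor the FOXA1nhaa list overlapped 0 shared sites. Overlap with FOXA1rraa is therefore not independent of overlap with FOXA1nhaa. Asking for it still left out 3006 of the 15123 sites that FOXA1dbd and FOXA1nhaa share without HNF4A. Of the 71202 FOXA1rraa rows, 23217 have the coordinates of a FOXA1 row, and 1 shared site is such a row. Every FOXA1 peak overlapped by FOXA1rraa without FOXA1nhaa or HNF4A, 18096 with FOXA1rraa alone and 4736 with FOXA1dbd, stands in the FOXA1rraa list with its own coordinates. Shares given below for those classes therefore describe rows that both lists hold, not peaks seen to overlap from separate calls. The FOXA1dbd rows lay wholly inside the FOXA1 peak in 99.9% of overlaps and shared its start or end in 34.3%, compared with 33.7% and 0.625% for FOXA1nhaa. Whether the FOXA1dbd list was restricted to FOXA1 peaks before deposit is not given in the sources used here. Some shared sites are parts of peaks: 1002 (8.27%) are pieces of a peak name that stands on several rows, and the 12117 rows carry 12008 distinct names. Only 19 were narrower than 50 bp. No read depth is given with the lists.

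Taken alone, FOXA1dbd overlapped 17.3% of all FOXA1 peaks, FOXA1nhaa 39.7%, FOXA1rraa 39.9% and HNF4A 1.68%. Of the 62072 peaks overlapped by FOXA1rraa, 37.4% have a FOXA1rraa row of the same coordinates. All 3 variants overlapped 12782 peaks (8.21%), of which 665 also overlapped HNF4A and were left out by the rule. HNF4A overlapped 5.20% of the peaks shared with all 3 variants and 1.36% of the other FOXA1 peaks.

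The shared sites stand high in the FOXA1 list. Their median score, the authors' measure of peak strength, was 232 (quartiles 151 and 332, range 23 to 1518), compared with 119 in the other FOXA1 peaks. Their median width was 494 bp, compared with 288 bp. The highest decile of FOXA1 peaks by score held 34.9% of the shared sites, and 27.1% of that decile were shared sites. In the lowest decile the share was 1.72%. Within the shared sites, higher scores went with greater width (Spearman's rho 0.53 across 12117 sites, which are not independent replicates). With the top 50% of each list the rule found 3276 sites, and in the authors' down-sampled FOXA1 list 2944.

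**Figure D1:**
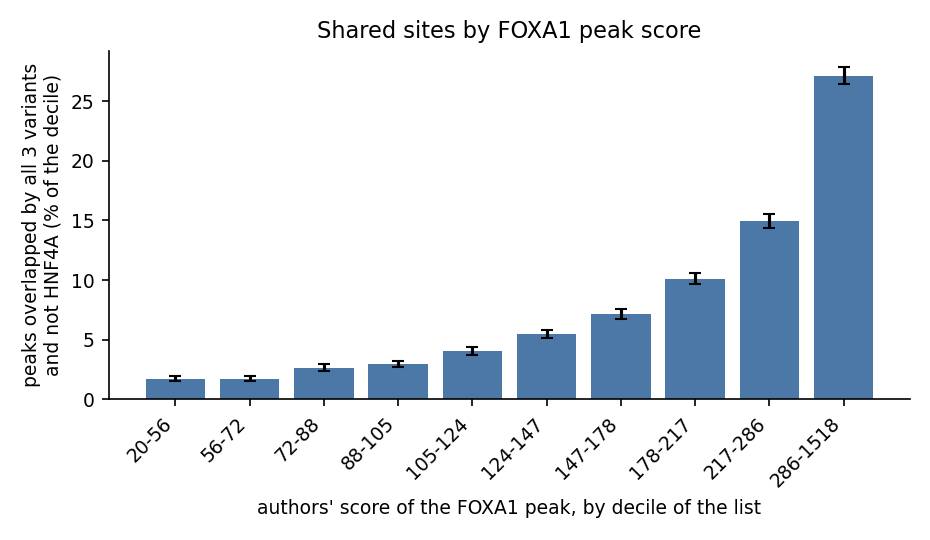
Share of FOXA1 peaks that are shared sites (vertical axis, percent, with 95% Wilson intervals) in each decile of the FOXA1 list by the authors' score (horizontal axis, score range of the decile). The share was under 3% in each of the 4 lowest deciles and 27.1% in the highest.

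The strength of the variants' peaks followed the FOXA1 score weakly. The FOXA1dbd rows had a median fold enrichment, the authors' ratio over background, of 5.29 in shared sites and 5.16 elsewhere. For FOXA1nhaa the medians were 6.27 and 5.66. Within the shared sites the FOXA1 score was weakly related to the FOXA1dbd fold (rho 0.098, 10967 sites) and to the FOXA1nhaa fold (rho 0.129, 10758 sites). From the lowest to the highest quintile by FOXA1 score the median FOXA1dbd fold went from 5.13 to 5.57 and the median FOXA1nhaa fold from 5.94 to 6.93, each quintile above the one before. The folds of both variants were nearly unrelated to each other (rho 0.017, 9754 sites). These rank correlations run across sites of the same lists, use rows of the most frequent peak-name prefix only, and are descriptions.

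The FOXA1dbd values in this paragraph rest on rows that often share an edge with the FOXA1 peak. FOXA1dbd rows covered a median of 54.3% of a shared site and FOXA1nhaa rows 79.0%. The FOXA1dbd summit lay a median of 63 bp from the FOXA1 midpoint and the FOXA1nhaa summit 81 bp. A single FOXA1dbd row fell in 11658 shared sites, and 459 sites held more than 1. At the edge of the rule, 16 shared sites had fewer than 10 bp under a FOXA1dbd row. Just inside was chr15:43442004-43442554, with a FOXA1 score of 197 and 1 bp covered. Just outside was chr16:69737355-69738025, with a score of 109 and a gap of 74 bp to the nearest FOXA1dbd row. No FOXA1 peak shared with FOXA1nhaa and FOXA1rraa came within 10 bp of a FOXA1dbd row without touching it, and 29 came within 100 bp.

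By difference in percentage points, AP-1 letters set the shared sites apart from the other FOXA1 peaks most among the motifs searched. TGANTCA stood in the central 200 bp of 24.7% of shared sites (95% Wilson interval 24 to 25.5), compared with 14.1% of the other FOXA1 peaks (13.9 to 14.3). The difference was 10.6 percentage points (95% Newcombe interval 9.82 to 11.4). Windows of the same length spaced every 10000 bp along the genome, 285856 in all, held the letters in 6.19% of cases, and all FOXA1 peaks in 14.95%. In the central 100 bp the share of shared sites was 13.5% and the difference 5.93 points. Here and below the intervals cover counting error over peaks only, since peaks are not replicates of a construct, and no p-value is given.

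The letters TGACTCA (the same site as TGAGTCA on the other strand) were present in 15.3% of shared sites and 7.38% of the other FOXA1 peaks. TGAATCA was present in 10.9% and 7.19%. The genome grid held them in 3.0% and 3.29% of windows. The form with a C or G in the middle is the classical AP-1 site, and the difference was 7.89 points for it and 3.73 points for the form with A or T.

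Across the classes of FOXA1 peaks, the AP-1 share went with FOXA1dbd overlap. The classes compared leave out peaks overlapped by HNF4A. AP-1 letters stood in 26.5% of peaks shared with FOXA1dbd and FOXA1nhaa only, in 22.4% of those shared with FOXA1dbd and FOXA1rraa only, and in 22.4% of those shared with FOXA1dbd alone. Without FOXA1dbd, the share was 13.7% of 25760 peaks shared with FOXA1nhaa and FOXA1rraa, 13.1% with FOXA1nhaa alone, 13.2% with FOXA1rraa alone, and 12.3% of 63949 peaks with none of the variants. The 4 classes with FOXA1dbd were thus all above the 4 without it. Pooled, AP-1 letters stood in 24% (23.5 to 24.5) of peaks with FOXA1dbd and in 12.8% (12.6 to 13) of those without. Shared sites were 2.37 points above peaks of FOXA1dbd alone (1.04 to 3.68) and 11.1 points above peaks of FOXA1nhaa and FOXA1rraa without FOXA1dbd (10.2 to 11.95). The 665 peaks of all 3 variants that also overlapped HNF4A held the letters most often among these classes, at 32.9% (29.5 to 36.6).

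**Figure D2:**
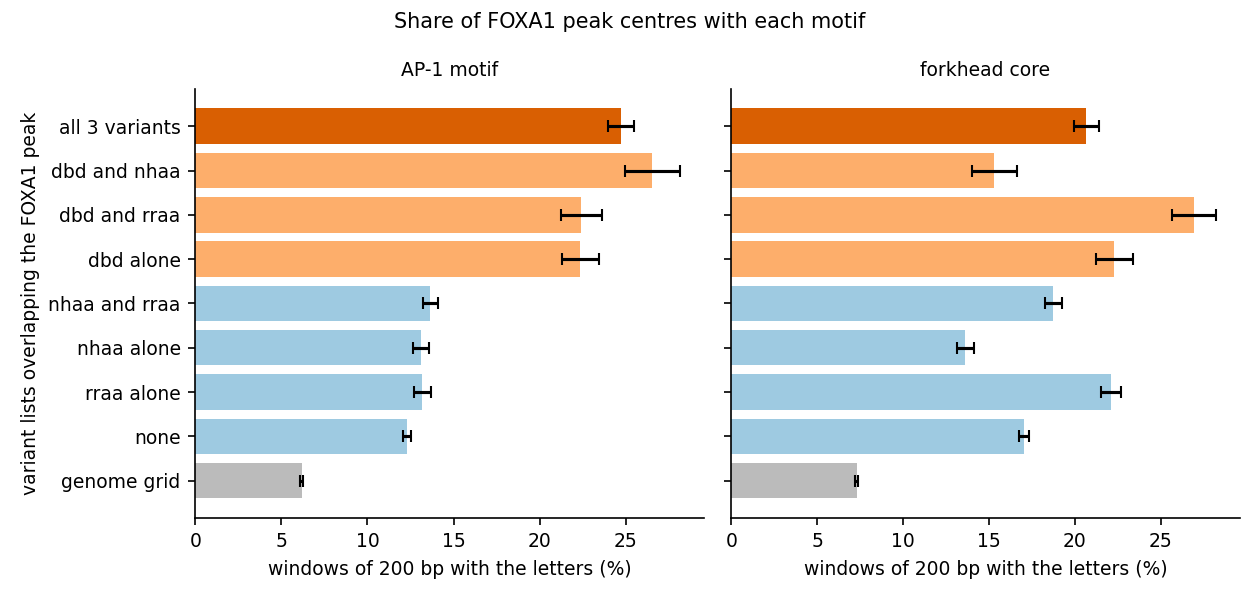
Share of FOXA1 peaks with AP-1 letters (left) and a forkhead core (right) in the central 200 bp (horizontal axes, percent), by the variant lists that overlap the peak, with peaks overlapped by HNF4A left out and the genome grid in grey. Bars are shares and lines are 95% Wilson intervals. AP-1 shares were 22.4 to 26.5% in the 4 classes with FOXA1dbd and 12.3 to 13.7% in the 4 without. Forkhead shares ran from 15.3 to 26.9% in the classes with FOXA1dbd and from 13.6 to 22.1% in those without.

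The AP-1 difference was present at low and at high FOXA1 scores. In the lowest quintile of FOXA1 peaks by score, 30.8% of 532 shared sites and 14.5% of the other peaks held the letters. In the highest quintile the shares were 23.3% of 6549 and 12.7%. All 5 quintiles had the shared sites higher, by 10.6 to 16.4 points. The same held in all quintiles by width, by 8.60 to 19.2 points, and by GC content, by 4.11 to 13.2 points. Weighted to the shared sites' own spread over these quintiles, the difference was 11.3 points for score, 12.1 for width and 10.1 for GC content.

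Inside the set of shared sites, AP-1 letters were less frequent at higher FOXA1 scores and more frequent at higher FOXA1dbd folds. From the lowest to the highest quintile by FOXA1 score the share went from 28.7% (26.9 to 30.5) to 20.9% (19.3 to 22.6). By FOXA1dbd fold it went from 22.9% (21.2 to 24.7) to 29.3% (27.4 to 31.2), with each quintile above the one before. By FOXA1nhaa fold the lowest quintile had 26% and the highest 23.4%, and their intervals overlap. The quintiles by FOXA1 score also differed in width, with medians of 312 bp in the lowest and 641 bp in the highest, while the window stayed at 200 bp. By width quintile of all FOXA1 peaks, the AP-1 share of shared sites was 29.9% in the narrowest, 34.4% in the third and 19.5% in the widest. Whether width accounts for the order by score was not tested.

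AP-1 letters were denser around the FOXA1dbd summit than around the FOXA1 midpoint. In 735 of the 12594 FOXA1dbd rows in shared sites, and in 0 FOXA1nhaa rows, the summit given lies beyond the row's end, and the row's midpoint was used in its place. With the window centred there, 30.6% of shared sites held them, compared with 24% around the FOXA1nhaa summit. Without the 689 sites whose strongest FOXA1dbd row was of that kind it was 30.8% (29.97 to 31.7). In the 50 bp just before the FOXA1dbd summit there were 2.12 AP-1 matches per kb of sequence, and 1.58 in the 50 bp just before the FOXA1 midpoint. The midpoint is the middle of the FOXA1 row and not a summit, so these centres are unlike measures. Near 475 bp from the FOXA1dbd summit the density was 0.376 on one side and 0.381 on the other. Around the midpoints of FOXA1 peaks with none of the variants the densest bin had 0.716 matches per kb, where the like value for shared sites is 1.58. Forkhead cores shifted the same way by less. They stood in 22.3% of shared sites around the FOXA1dbd summit, 20.7% around the FOXA1 midpoint and 18.7% around the FOXA1nhaa summit.

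**Figure D3:**
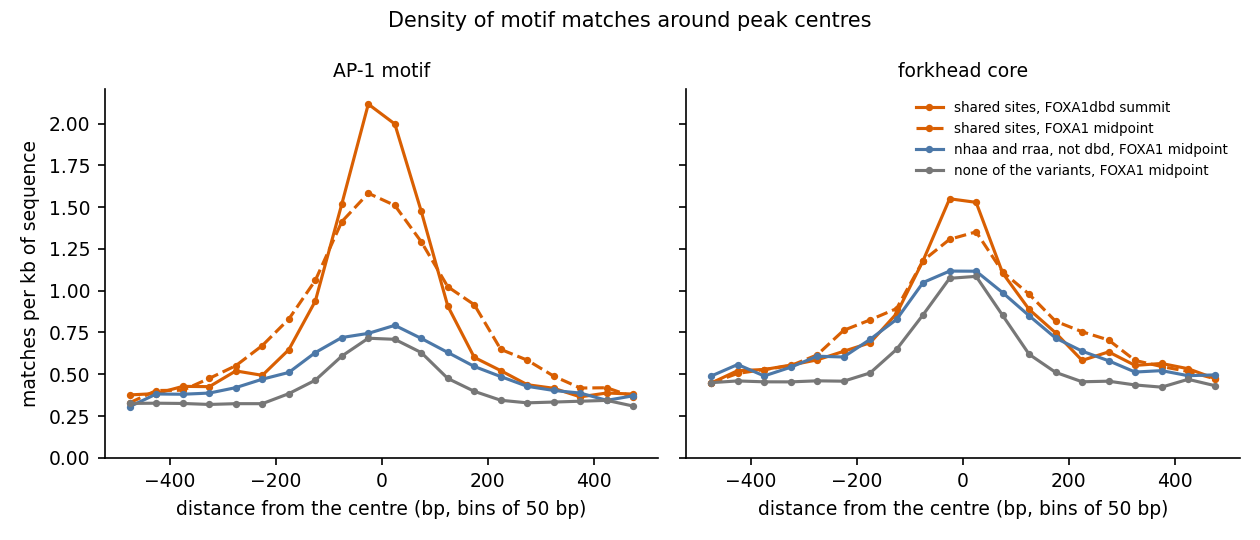
Matches per kb of sequence (vertical axes) of AP-1 letters (left) and forkhead cores (right) against distance from the centre in bins of 50 bp (horizontal axes), for shared sites around the FOXA1dbd summit and the FOXA1 midpoint and for 2 other classes around the FOXA1 midpoint. The AP-1 line of shared sites peaks at 2.12 per kb at the FOXA1dbd summit, and the forkhead lines peak at their centres in all classes drawn.

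The forkhead core itself differed less. TGTTTAC or TATTTAC stood in the central 200 bp of 20.7% of shared sites (19.9 to 21.4) and of 18.0% of the other FOXA1 peaks (17.8 to 18.2), a difference of 2.67 points (1.93 to 3.42). All FOXA1 peaks held a core in 18.2% of windows and the genome grid in 7.30%. In the central 100 bp the share was 11.3% and the difference 1.36 points. The same letters read backwards, CATTTGT or CATTTAT, gave 18.7% and 19.8%, a difference of -1.13 points (-1.85 to -0.398), and 12.3% in the grid. TGTTTAC, the core most often given for FOXA proteins, was present in 9.24% of shared sites and 7.17% of the others. TATTTAC was present in 12.7% and 11.7%, and the related TGTTTGC in 6.32% and 5.81%.

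Most shared sites had no exact core: 79.3% held 0 in the window, 17.9% held 1, 2.42% held 2 and 0.355% held 3 or more. No match says only that these letters are not in this window. After TGTTTAC the next base was A in 49.3% of the 1200 cores in shared sites and in 42.3% of those in other FOXA1 peaks. T followed in 32.5% and 38.4%.

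By class, the forkhead share was highest in peaks of FOXA1dbd or FOXA1rraa without FOXA1nhaa; those with FOXA1rraa are the rows that the FOXA1 and FOXA1rraa lists both hold. It was 26.9% in peaks shared with FOXA1dbd and FOXA1rraa only, 22.3% with FOXA1dbd alone and 22.1% with FOXA1rraa alone, all above the 20.7% of shared sites. It was 18.8% with FOXA1nhaa and FOXA1rraa, 15.3% with FOXA1dbd and FOXA1nhaa only, and 13.6% with FOXA1nhaa alone. Peaks with none of the variants had 17.0%. Between classes alike in FOXA1nhaa and FOXA1rraa overlap, the class with FOXA1dbd had the higher share each time. Pooled, a core stood in 21.5% (21 to 22.1) of peaks with FOXA1dbd and in 17.6% (17.4 to 17.8) of those without. Among shared sites the core was more frequent at high FOXA1 scores, 24.5% (22.9 to 26.3) in the highest quintile and 18.9% (17.4 to 20.5) in the lowest. It was 21.8% (20.1 to 23.6) in the lowest and 18.2% (16.6 to 19.9) in the highest quintile by FOXA1nhaa fold. By FOXA1dbd fold every quintile lay between 19.8% and 21.2%.

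Few sites held both motifs, where 20.7% of shared sites held a core and 24.7% held AP-1 letters. Both were present in 4.07% of shared sites and 2.16% of the other FOXA1 peaks, and neither in 58.7% and 70.0%. Among shared sites with AP-1 letters 16.5% (15.2 to 17.8) also held a forkhead core, compared with 22% (21.2 to 22.9) of those without. The motifs ran opposite ways with GC content. From the lowest to the highest GC quintile the core share of shared sites went from 27.2% to 16.2%. The AP-1 share went from 14.5% to 32.1%. Whether GC content accounts for the contrast was not tested. The SPATS2L site (score 920, FOXA1dbd fold 10.8, FOXA1nhaa fold 11) and the SPAG16 site (score 789, folds 5.34 and 8.91) printed above have the highest FOXA1 scores of the sites outside chromosome 8 that hold both.

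Other motif letters differed by fewer points than the forkhead core. GGAATG, the core bound by TEAD factors, stood in 13.9% of shared sites and 11.8% of the other FOXA1 peaks (difference 2.16 points, 1.53 to 2.81), and in 10.6% of grid windows. As a ratio of the shares GGAATG stood at 1.18 and the forkhead core at 1.15. The E-box CAGATG differed by 1.11 points, the E-box CAGCTG by 0.638 and the steroid receptor motif by 0.504, with intervals above 0. The intervals included 0 for RUNX (TGTGGTT), C/EBP (TTGCNNAA), SOX (CTTTGTT), STAT (TTCNNNGAA), HNF4 (CAAAGTCCA), CTCF, ETS (CCGGAAG), SP/KLF (GGGCGG), CRE (TGACGTCA) and NFI. Among all FOXA1 peaks the shares of these 10 ran from 0.00642% for NFI to 15.5% for C/EBP. All were searched on both strands. Base composition was close: mean GC was 33.6% (SD 4.75 over sites) in shared sites, 32.7% in the others and 40.9% in the grid.

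A small group of shared sites had repetitive windows, and it was frequent among the highest FOXA1dbd folds. A window was called repetitive when it held fewer than 140 distinct words of 6 letters out of 195 possible, a limit set after the data were seen. By it 454 shared sites (3.75%, 3.42 to 4.1) were repetitive, compared with 1.07% of the other FOXA1 peaks (difference 2.68 points, 2.35 to 3.03) and 1.18% of the grid. Peaks of FOXA1dbd and FOXA1rraa only had 8.66% and those of FOXA1dbd alone 6.29%. The share was 1.19% with FOXA1rraa alone, 0.665% with FOXA1dbd and FOXA1nhaa only, 0.574% with none of the variants, 0.431% with FOXA1nhaa and FOXA1rraa and 0.169% with FOXA1nhaa alone.

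Of the 100 shared sites with the highest FOXA1dbd fold 59.0% were repetitive, of the highest 1000 19.6%, and of the lower 50% 1.40%. The FOXA1 score showed no such order, with 7.0% of its highest 100 and 4.92% of its lower 50%. For FOXA1nhaa it depended on the peak-name prefix of the row. Rows named FOXA1_3, which are 89.0% of the FOXA1nhaa rows in shared sites, had 3.0% repetitive sites among the highest 100. Rows named FOXA1_5, 10.5% of them, had 53.0%. The base shares differed too. Of all 1317 shared sites ranked by FOXA1_5 rows 23.8% were repetitive, and of the 10758 ranked by FOXA1_3 rows 1.30%. In the lower 50% the shares were 18.1% and 1.86%. The highest 100 are also a larger part of the FOXA1_5 sites. The strongest FOXA1nhaa row was named FOXA1_5 in 69.2% of repetitive shared sites and in 8.60% of the others. The labels do not say what the prefixes stand for.

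**Figure D4:**
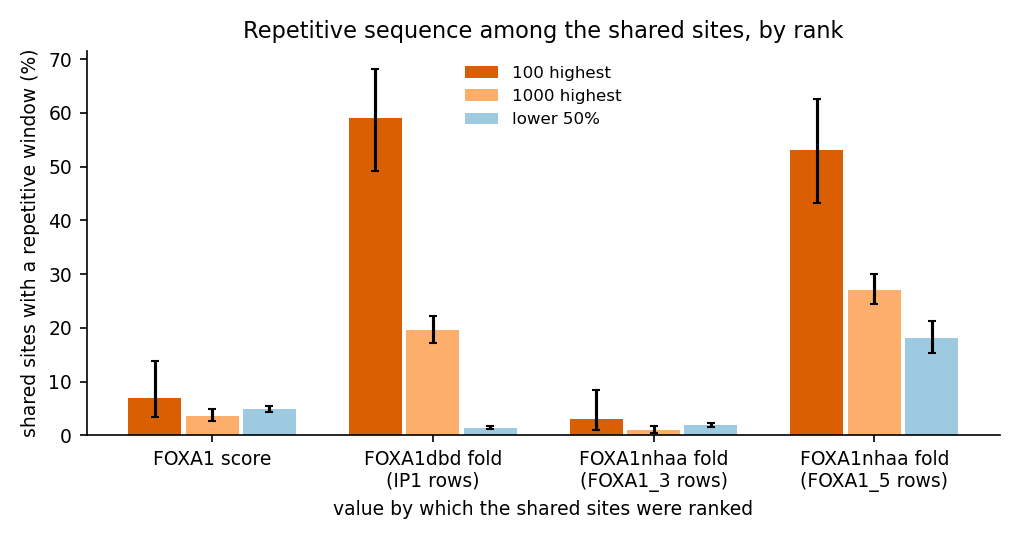
Share of shared sites with a repetitive central window (vertical axis, percent, with 95% Wilson intervals) among the 100 highest, the 1000 highest and the lower 50%, ranked by 4 values of the authors (horizontal axis). The 100 highest by FOXA1dbd fold and by FOXA1nhaa fold in FOXA1_5 rows stand at 59.0% and 53.0%, and those by FOXA1 score and by fold in FOXA1_3 rows at 7.0% and 3.0%. The FOXA1_5 ranking holds 1317 sites, so its 1000 highest and its lower 50% share sites.

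Repetitive shared sites held AP-1 letters in 0.881% of windows and a forkhead core in 11.9%. Without them the AP-1 share was 25.7% and the forkhead share 21.0%. Their median FOXA1dbd fold was 7.59, compared with 5.28 in the other shared sites, while their median FOXA1 score was lower, 183.5 compared with 233.

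The sites at the top of each ranking are described outside chromosome 8. Of the 5 highest by FOXA1 score 1 was repetitive, and of the 5 highest by FOXA1dbd fold 4 were. By FOXA1 score the highest was chr3:46948550-46949919 (score 1518, FOXA1dbd fold 15.8, FOXA1nhaa fold 21.8), the TG-rich repeat printed above. It lay between genes, 5146 bp from the start of a transcript of PTH1R, the parathyroid hormone receptor gene. By whole genes, the nearest protein-coding start was 25.6 kb away, at MYL3. Next came chr17:44252967-44253748 (score 1177) in an intron of KANSL1, which encodes a subunit of a histone acetyltransferase complex, with AP-1 letters and no core. The others were chr13:113850078-113850652 (score 1145) in an intron of PCID2, chr1:162387874-162388415 (score 1082) near SH2D1B, and chr1:85993323-85993995 (score 1035) in an intron of DDAH1. The last pair each held 1 forkhead core.

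By FOXA1dbd fold the highest was chr18:77323744-77325116 (fold 22.1), between genes. It was followed by chr2:45641484-45642160 (fold 21.5) in an intron of SRBD1 and chr20:36000745-36001973 (fold 17.8) in an intron of SRC, the gene of a tyrosine kinase. Then came chr4:152037178-152037695 (fold 17.0) in an intron of SH3D19 and chr1:236656624-236657119 (fold 16.7) in an intron of EDARADD, an adaptor of ectodysplasin receptor signalling. The EDARADD site also had the highest FOXA1nhaa fold of all shared sites, 31.3. None of these 5 held AP-1 letters around its midpoint, and 4 of them had no forkhead core there. All but the SRC site were repetitive.

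All 5 sites with the most forkhead cores were repetitive. The chr2 site at chr2:143360200-143360671 had a score of 422, a FOXA1dbd fold of 7.33 and a FOXA1nhaa fold of 14.5. The chr12 site at chr12:48027371-48028430 had a score of 232 and folds of 11.7 and 4.62. Its FOXA1dbd fold is above 11.1, the limit of the 100 highest, and its score is the median of the shared sites. The next 3, with 6 cores each, lay in introns, at chr1:198461584-198462257, at chr16:11136592-11137033 in CLEC16A and at chr7:19534278-19534785. Their scores ran from 112 to 413, their FOXA1dbd folds from 5.06 to 8.82 and their FOXA1nhaa folds from 8.08 to 16.8.

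Shared sites were mostly far from promoters, like FOXA1 peaks in general. A transcription start lay within 1000 bp of the midpoint in 9.29% of shared sites (8.79 to 9.82) and 8.83% of the others, and the interval of the difference, 0.463 points, included 0 (-0.0625 to 1.01). Within 2500 bp the shares were 21.4% and 19.8%, a difference of 1.60 points (0.849 to 2.37). Introns held 64.8% and 64.6%, the space between genes 20.5% and 21.4%, and coding exons 0.578% and 0.787%. The median distance to the start of a protein-coding gene was 59.1 kb in shared sites and 58.4 kb in the others. Against FOXA1 peaks shared with FOXA1nhaa and FOXA1rraa but not FOXA1dbd, more of the shared sites lay between genes, 20.5% compared with 17.0% (difference 3.46 points, 2.61 to 4.31).

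AP-1 letters were most frequent in shared sites between genes, at 30.7% (28.9 to 32.6). They stood in 23.8% of those in introns, 22.5% near starts and 17.1% in exons. The places stood in the same order in the other FOXA1 peaks, from 16.7% between genes to 11.9% in exons. Forkhead cores did not vary this way, with 20 to 22.1% of shared sites in each place.

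The X and Y chromosomes held few shared sites. On the X, 28 of 2222 FOXA1 peaks (1.26%, 0.873 to 1.82) were shared sites, compared with 7.89% (7.75 to 8.02) on chromosomes 1 to 22. On the Y, 2 of 183 were (1.09%, 0.300 to 3.90). FOXA1 peaks on the X and on the Y each had a lower median score, 90, where single autosomes ranged from 120 to 128. In the highest quintile by score the shares were 14.3% (8.17 to 23.8) of 77 peaks on the X and 21.1% on chromosomes 1 to 22, and the intervals overlap. In the other 4 quintiles the X was lower by more than the intervals. FOXA1dbd overlapped 4.95% of X peaks, FOXA1nhaa 15.6% and FOXA1rraa 25.9%. Among the autosomes, chromosome 19 was lowest, at 5.07% of 987 peaks, and chromosome 22 highest, at 9.13% of 1063.

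Another shared site lay within 10 kb of 22.3% of shared sites (21.6 to 23.1) and of 18.3% of the other FOXA1 peaks (18.1 to 18.6). The share was 21.2% (20.7 to 21.7) for peaks of FOXA1nhaa and FOXA1rraa without FOXA1dbd, whose interval overlaps that of the shared sites. Pieces of 1 peak count as neighbours here; with neighbours of another peak name only, the shares were 20.9% (20.2 to 21.7), 17.9% (17.7 to 18.1) and 20.3% (19.8 to 20.8). The median number of other FOXA1 peaks within 50 kb was 11 for shared sites and for the others.

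Of 15308 protein-coding genes with a FOXA1 peak in the body or within 20 kb of it, 5751 had a shared site. Of all FOXA1 peaks 7.78% are shared sites, and no number of genes expected from that share was computed. The most were at ARID5B, which encodes a DNA-binding cofactor, with 19 of its 78 FOXA1 peaks (24.4%), and at CRIM1, which encodes a membrane protein that binds bone morphogenetic proteins, with 19 of 70 (27.1%). PRKG1, a kinase activated by cyclic GMP, had 16 of 191 (8.38%, 5.22 to 13.2). ATXN1 had 15 of 96 (15.6%, 9.70 to 24.2) and DST, a cytoskeletal linker, 15 of 152 (9.87%, 6.07 to 15.6). The intervals of PRKG1 and DST include 7.78%. Genes were ranked by count, so a gene with many FOXA1 peaks can rank high at a share near 7.78%. ARID5B and CRIM1 are 195.3 and 195.4 kb long and PRKG1 is 1308 kb long.

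Gene lists were read against the 7.78% of all FOXA1 peaks that are shared sites. Genes of integrins, laminins and focal adhesions, which attach fibroblasts to their matrix, had 47 shared sites among 390 FOXA1 peaks within 50 kb (12.1%, 9.18 to 15.7). It was the only list of the 8 whose interval lay above 7.78%. Of its 16 genes 12 had a shared site. Without ITGB1 the share was 34 of 340 (10%, 7.24 to 13.6), and the interval included 7.78%. ITGB1, the integrin beta-1 chain, supplied 13 of the 47, among 50 FOXA1 peaks (26%). LAMC1, a laminin chain, had 6 of 48, ITGAV, an integrin alpha chain, 5 of 54 and VCL, the focal adhesion protein vinculin, 5 of 52. This list's FOXA1 peaks also had a higher median score, 142, than the 124 of the whole FOXA1 list.

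Genes of the TGF-beta pathway, a main signal for matrix production, had 29 of 274 (10.6%, 7.47 to 14.8). LTBP1, which binds latent TGF-beta, had 6 of 59 and the ligand gene TGFB2 6 of 27. The co-receptor gene TGFBR3 had 3 of 34, the signal transducer SMAD2 3 of 27, TGFBR2 3 of 20 and SMAD6 3 of 7. Of these 16 genes 10 had a shared site, while TGFBR1 had 0 of 19. Fibroblast matrix and surface genes had 39 of 433 (9.01%, 6.66 to 12.1). The collagen gene COL5A2 had 10 of 114 (8.77%) and the fibrillin gene FBN1 6 of 78 (7.69%), both near 7.78%. The decorin gene DCN had 5 of 38 and the collagen cross-linking enzyme LOX 4 of 29. Of these 19 genes 12 had a shared site, while FN1 had 0 of 30 and PDGFRA 0 of 14. Fibroblast transcription factor genes had 42 of 516 (8.14%, 6.08 to 10.8), including RUNX1 with 12 of 118. TCF4 had 5 of 102 (4.90%), TEAD1 5 of 59, ZEB2 5 of 45 and TWIST1 5 of 33. Of the list's 14 genes 10 had a shared site, while ZEB1 had 0 of 44. AP-1 subunit genes had 4 of 41 (9.76%, 3.86 to 22.5): 2 of 9 at JUN, 1 of 10 at ATF3 and 1 of 6 at FOS.

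Lists of genes from tissues where FOXA1 normally acts were read the same way. Hormone-response genes of breast and prostate had 5 of 104 (4.81%, 2.07 to 10.8), of which 2 of 34 stood at ESR1, the estrogen receptor gene, and 1 each at FKBP5, PGR and XBP1. Liver genes had 5 of 118 (4.24%, 1.82 to 9.54), of which 2 of 25 stood at CPS1, a urea cycle enzyme. Liver transcription factor genes had 5 of 53 (9.43%, 4.1 to 20.3), including 2 of 4 at NR1H4, the bile acid receptor. The intervals of all 3 lists include 7.78%. The median score of the FOXA1 peaks was 101 at the hormone-response genes, 112 at the liver genes and 144 at the liver transcription factor genes.

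**Figure D5:**
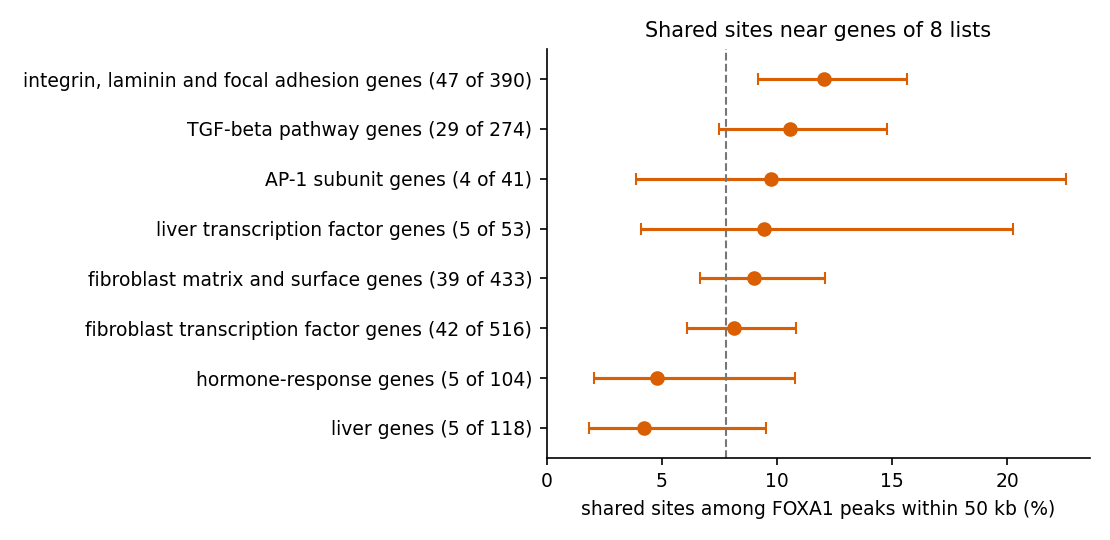
Shared sites as a percent of FOXA1 peaks within 50 kb of the genes of 8 lists (horizontal axis; points with 95% Wilson intervals; counts beside each list name), with the 7.78% of all FOXA1 peaks as a dashed line. The interval of the integrin, laminin and focal adhesion list, 9.18 to 15.7%, lies above the line, and the other 7 include it.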

How the data were processed

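ChIP-seq peak lists of 5 constructs in BJ cells were analysed, grouped by the sample titles; 1 list stood for each construct, and whether they were called per library or after pooling is not given in the sources used here. The submitters' processing notes name Bowtie2 2.3.4.1, Picard, GATK 4.2.6.0, bedtools 2.27.1, MACS2 2.2.7.1, deepTools 3.5.0 and hg19, without roles or parameters. The deposited FOXA1 lists give a score per peak. The other deposited lists also give a ratio (fold enrichment), −log10 values of p and q, and the summit, all as the authors' peak caller wrote them, used only within a list. Rows with equal coordinates were counted once.

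Overlaps of at least 1 bp were found with bedtools 2.31.1. Sequence came from GRCh37, in which every peak lies within its chromosome, and genes from GENCODE 44 lifted to it. Both strands of the 200 bp around each row's midpoint were searched for motifs, and windows every 10000 bp served as the genome grid. Shares have 95% Wilson intervals, differences 95% Newcombe intervals, and standardised differences 95% normal intervals. The code was tested on simulated data with planted overlaps and motifs.

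Named sites, outside chromosome 8, were the 5 highest by FOXA1 score, by FOXA1dbd fold (rows named IP1) and by number of cores. The sites nearest to the overlap threshold, also outside chromosome 8, were named too. Named genes were the 5 with the most shared sites and, per list, up to 4 with the most, with ties. Some list genes without a shared site were named as well. The sites, motifs and gene lists were chosen with earlier results of these data known. Samples of HALO-tagged H2B were not used here.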

Additional observations from a re-analysis of the deposited data

How the results depend on the processing

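Of 58 alternative values, 31 stayed close to the main value (within 1.5 times for a count, inside the main interval for a share), 26 moved and 1 changed sign. Of the number of shared sites, 12117, the top 50% of each list by rank left 3276, the down-sampled FOXA1 list 2944 and FOXA1rraa without rows of the FOXA1 or FOXA1nhaa list 0. The top 50% was taken by the −log10 q-value where a list gives it. The AP-1 share and difference were 27.1% and 13 points with midpoints within 200 bp, 26.3% and 12.1 with the most frequent prefix, 13.5% and 5.93 in 100 bp, 15.3% and 7.89 for TGACTCA, 10.9% and 3.73 for TGAATCA, and 25.7% and 11.4 without repetitive windows. The share was 30.6% at the FOXA1dbd summit and 30.8% there without summits beyond the row, and the difference 12.1 over width quintiles. The forkhead share and difference were 11.3% and 1.36 points in 100 bp and 18.7% and -1.13 for the reversed letters. The share was 22.3% and 22.7% at these summits, and the difference 3.56 over width quintiles. Starts within 2500 bp gave 21.4% and 1.60 points. The cause of these shifts was not tested, except that a narrower window and TGACTCA or TGAATCA alone lower a share, and fewer rows the number of sites, by construction. All AP-1 alternatives, repetitive windows, the prefix for motifs, the FOXA1dbd summit and FOXA1rraa not asked for (15123 sites) were added after the data were seen.

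No paired analysis was possible because the files hold 1 peak list for a construct, without replicate columns, and leaving out a replicate was not possible for the same reason. The depth of the lists is unknown, so no limit of detection can be given for a variant. The intervals treat neighbouring peaks as independent.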
